A study of Saccharomyces cerevisiae with 20 samples.

Results

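The strain difference described here is that between set1Δ and WT in asynchronous, growing cultures of the budding yeast Saccharomyces cerevisiae. set1Δ is W303a, a haploid laboratory strain of mating type a, with SET1 deleted, and WT is W303a with SET1. Both grew at 30 °C in rich medium (YPD), and the 2 libraries carry the label of an unsynchronised culture taken before the time course. The labels name no pheromone treatment of these 2 cultures, and no library of the series carries a label of benomyl. Each strain gave 1 asynchronous library, so the pair has no replicate and no test. Of the 6532 features of the read count table, 4040 (61.8%) had at least 50 reads in either asynchronous library and are the genes described. The other 18 libraries, 9 a strain, came from cells held in G1 with α-factor, a mating pheromone (5 µg/ml, about 2 h) and taken at 15 min steps, from 0 to 120 min after its removal. They give 9 release pairs, which hold no asynchronous library and in which the same strain difference can be tested. Each release pair is again 1 library a strain, so its p-values measure the spread between time points and not between cultures.

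Within COMPASS, Set1 is the enzyme that places methyl groups on histone H3 at lysine 4 along transcribed genes, and yeast has no other enzyme for this mark. The mark has been tied both to activation and to repression, and in yeast its loss is known for effects on silencing near telomeres, on Ty retrotransposons and on stress-responsive genes. Cells of mating type a make a-factor, carry the receptor Ste2 for α-factor, and turn on mating genes through the transcription factor Ste12 when the receptor is engaged. PAT-seq reads the 3′ ends of polyadenylated RNA and gives, for each gene, a read count and the mean length of the poly(A) tails read through. In such bulk RNA, fewer cells of a type and less RNA per cell cannot be told apart.

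The set1Δ asynchronous library held 2200423 reads and the WT one 2312642, among the deepest of the 20 libraries, which ranged from 476565 to 2413354. A poly(A) tail was found in 73.7% of set1Δ reads and in 73.9% of WT reads, whereas after release that share ranged from 32.2% to 91.7% of a library's reads. The 4040 genes held 98.5% of set1Δ reads and 98.6% of WT reads. Of them, 3906 were features of 1 annotated gene, 108 merged several genes and 26 were not matched to the annotation. At the edge of the rule, 32 features had exactly 50 reads in the deeper library, and their log2 differences had an SD of 0.68, while 21 features just outside, with 49 reads, had an SD of 0.42. The labelled mating type was checked against its markers. All 7 a-specific genes were among the 4040, with 2503 reads of MFA1 in set1Δ and 5336 in WT. None of the 4 α-specific genes on the list used was. That list does not hold AFB1, the a-factor barrier protein, which was among the 4040 and is described below. MF(ALPHA)1 had 5 reads in set1Δ and 0 in WT, MF(ALPHA)2 had 3 and 0, and STE3 had 5 and 2. SAG1, the fourth gene of that list, was not near 0, with 45 reads in set1Δ and 31 in WT, under the limit of 50. The check thus rests on the 4 genes listed.

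SET1 itself was the lowest of the 4040 genes. It had 35 reads in asynchronous set1Δ and 150 in WT, or 15.4 and 65.9 CPM (reads scaled to library size by TMM). The log2 difference, here and below set1Δ minus WT of log2(CPM + 1), was −2.03, and its exact 95% interval from the 2 read counts was −2.67 to −1.56. That interval, like the others below, covers counting error only. It is of the ratio of the 2 scaled counts with no 1 CPM added, so it need not centre on the log2 difference of a low gene. Reads thus remained at the locus in set1Δ, and since the extent of the deletion is not given in the sources used here, reads from 3′ of it would check nothing. After release SET1 ranged from 5.80 to 12.2 CPM (median 8.95) in set1Δ and from 30.3 to 60.4 CPM (median 35.0) in WT, without overlap. Of its neighbours on chromosome VIII, ORC6, a subunit of the origin recognition complex, was close to even, with 161 reads in set1Δ and 158 in WT. MSH1, a mitochondrial DNA repair protein, had 41 and 54 (−0.38, interval −1.02 to 0.22). Of the 5 other COMPASS subunit genes measured, BRE2 was higher, with 104 reads in set1Δ and 73 in WT (log2 0.50), and SWD2, SDC1, SPP1 and SWD3 stood at −0.46 to −0.19. BRE2 was also called higher after release (log2 0.46 ± 0.14 SE, adjusted p = 0.0335, edgeR), a call that was lost in 6 of the 9 fits that leave out 1 time point (adjusted p of 0.0291 to 0.0854).

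Apart from SET1 the asynchronous cultures of the strains were much alike. The median log2 difference over the 4040 genes was −0.02 and the SD 0.34, and 92.2% of genes lay within 1.5-fold of even. At least 2-fold higher in set1Δ were 24 genes (0.594% of the 4040), and 16 (0.396%) were at least 2-fold lower. The release pairs were wider, with SDs over the same genes of 0.485 to 0.904, and 4.25% to 29.0% of the genes with 50 reads in a release pair passed 2-fold. Those same genes were chosen by their reads in the asynchronous libraries, and most release libraries were shallower, so counting error differs between the pairs. How much of the wider SDs it makes up was not tested. In the asynchronous pair, depth bore on the count past 2-fold. Of the 40 genes past 2-fold in either direction (0.99%), 27 had fewer than 100 reads in both libraries and 6 had at least 200 in either. Among 1179 genes whose deeper library gave 50 to 99 reads, the SD was 0.395, where counting error alone gives about 0.260. Among 227 genes with 2000 reads or more it was 0.246, where counting gives 0.0342. These 227 genes also sat lower, with a median of −0.17 and 58 of them higher in set1Δ. With total reads in place of TMM scaling, the median of all genes was 0.05, and 34 genes passed 2-fold higher and 11 lower.

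**Figure D1:**
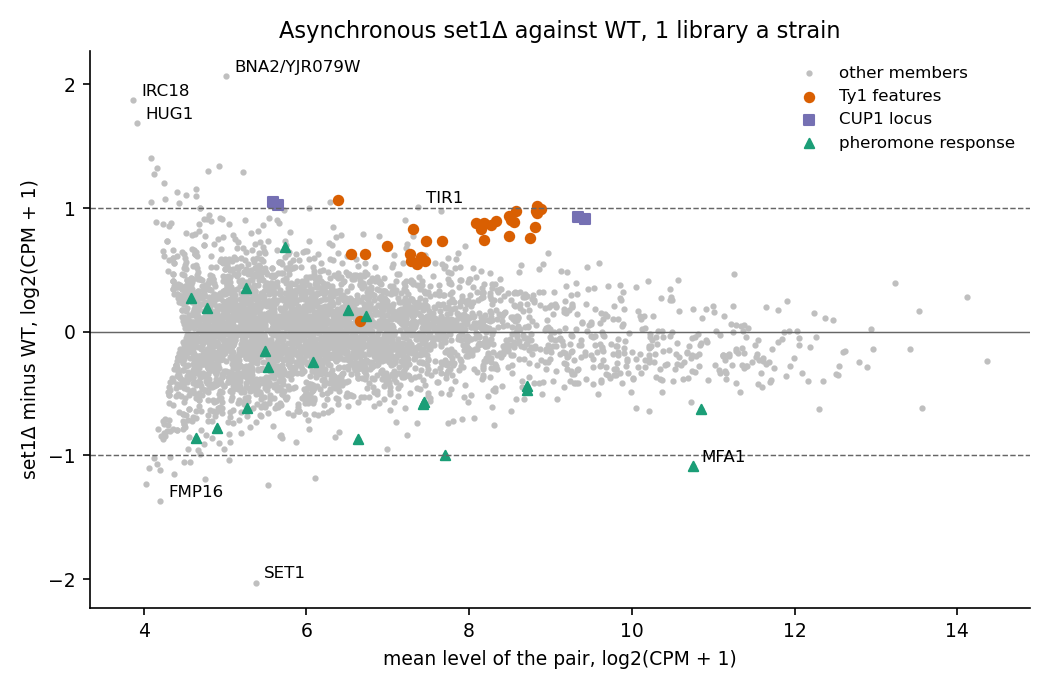
Each point is a gene of the asynchronous pair, placed by its mean level in log2(CPM + 1) (x axis) and its set1Δ minus WT log2 difference (y axis), and dashed lines mark 2-fold. Ty1 features (orange) lie between 0.08 and 1.06, the CUP1 locus (purple) between 0.91 and 1.05, pheromone response genes (green) lie mostly below 0, and SET1 lies at −2.03.

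The genes furthest above WT were mostly low in reads and came from varied functions. The feature that merges BNA2, the tryptophan dioxygenase that opens NAD synthesis, with its neighbour YJR079W had 116 reads in set1Δ and 26 in WT, a log2 difference of 2.07 (interval 1.54 to 2.83). IRC18, a gene of the sporulation list, had 50 reads in set1Δ and 12 in WT (1.87, interval 1.13 to 3.11). HUG1, an inhibitor of ribonucleotide reductase that the DNA damage checkpoint induces, had 50 and 14 (1.69, interval 0.96 to 2.81). These 3 were picked as the highest by this same difference, and all 3 reached the limit of 50 reads in set1Δ alone. Their differences and intervals in this pair are therefore a description and no support. All 3 were higher in set1Δ in 9 of 9 release pairs. They were also called higher after release, BNA2/YJR079W by 0.74 ± 0.12 (SE, adjusted p = 0.000733, edgeR), IRC18 by 2.27 ± 0.28 (adjusted p = 5.25e-05) and HUG1 by 1.25 ± 0.23 (adjusted p = 0.00165).

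Of the rest of the 10 highest, several encode transporters. YAT1, a carnitine acetyltransferase, had 97 and 37 reads, and YSW1, a spore protein, had 58 and 24. Both were called higher after release as well, but the call of YAT1 (adjusted p = 0.0336, edgeR) was lost in 7 of the 9 fits that leave out 1 time point (0.00124 to 0.0878). By contrast PHO84, the high-affinity phosphate transporter, had 87 reads in set1Δ and 34 in WT and was higher in 6 of 9 release pairs, with no call (adjusted p = 0.205). PDR11, a sterol importer (54 and 19 reads), DUR3, a urea and polyamine transporter (56 and 21), and SET6, which carries a SET domain (54 and 21), were not called after release either. Outside the 10 highest, TIR1, a hypoxia-induced cell-wall mannoprotein, and ADE17, of purine synthesis, lay just past 2-fold and were better covered. TIR1 had 499 reads in set1Δ and 248 in WT (1.00, interval 0.79 to 1.24), yet it was higher in 3 of 9 release pairs. ADE17 had 196 and 97 reads and was higher in 5 of 9.

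The genes furthest below WT, after SET1, came from varied functions. They too were picked by this same difference, and those with fewer than 50 reads in set1Δ reached that limit in WT alone. FMP16, of mitochondria, had 21 reads in set1Δ and 58 in WT (−1.37, interval −2.26 to −0.72). It was lower in set1Δ in all 9 release pairs and was called lower after release by edgeR (−1.83 ± 0.17, adjusted p = 5.25e-06). MRPL28, a protein of the mitochondrial ribosome, had 60 and 145 reads (−1.24), but was higher in 6 of 9 release pairs. MRPL28 follows MFA1 on chromosome IV, on the same strand, with 786 bases between the annotated genes, and both were lower in asynchronous set1Δ. AFB1, the a-factor barrier protein, had 93 reads in set1Δ and 215 in WT (−1.19, interval −1.57 to −0.85), and FRE3, a ferric reductase for siderophore iron, had 35 and 83. Both were lower in 9 of 9 release pairs and called lower after release. HSK3, a subunit of the Dam1 kinetochore complex, had 20 reads in set1Δ and 50 in WT and was called lower after release (adjusted p = 0.0448, edgeR, and 0.00817 to 0.12 with 1 time point left out, the call being lost in 7 of 9 fits). The remaining 3 of the 10 lowest were not called after release. These were MTH1, a repressor of hexose transporters (27 reads in set1Δ and 63 in WT), DEG1, a tRNA pseudouridine synthase (24 and 55), and APC2, of the anaphase-promoting complex (22 and 50).

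How far the pair resembled the release was counted over all 40 genes past 2-fold. After release edgeR called 400 of 5060 genes higher in set1Δ (7.91%) and 511 lower (10.1%). Of the 24 genes at least 2-fold higher in the asynchronous pair, 13 were called higher after release, 1 was called lower and 11 were higher in all 9 release pairs. Of the 16 at least 2-fold lower, 10 were called lower after release, none was called higher and 6 were lower in all 9 pairs. The share of all 4040 genes on the same side in all 9 pairs is not given here, so the counts of 11 and 6 stand without it. Read the other way, 354 of the 4040 genes were called higher after release, and 313 of them were also higher in the asynchronous pair, with a median of 0.30 there against 0.59 after release. Another 407 were called lower after release, and 311 of them were lower in the asynchronous pair, with medians of −0.24 and −0.65. Among all 4040 genes, 48.6% were higher and 51.4% lower in the asynchronous pair. The release calls depend on the 120 min pair. Without it 636 genes were called higher and 709 lower, and without the 105 and 120 min pairs together 660 and 690, while leaving out the 105 min pair alone gave 287 and 413.

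The 1 gene of the 40 called after release in the opposite direction was YDR170W-A, annotated as a gag protein gene of chromosome IV at a Ty1 long terminal repeat. It had 238 reads in asynchronous set1Δ and 114 in WT (log2 1.05, interval 0.74 to 1.40), whereas after release it ranged from 60.8 to 346 CPM (median 97.3) in set1Δ and from 60.2 to 489 CPM (median 229) in WT. It was lower in set1Δ in 8 of 9 release pairs (−0.97 ± 0.20, adjusted p = 0.00361, edgeR). The edgeR test of the difference between the asynchronous pair and the release gave 2.03 ± 0.64 (unadjusted p = 0.00589, adjusted p = 1.00). Without the 105 and 120 min pairs the adjusted p was 0.0244. YDR170W-A was chosen after its values were seen.

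Most measured genes of mating, though not all, stood below WT in the asynchronous set1Δ culture. Of 20 measured genes of the pheromone response list, 14 were lower and 6 higher, with a median of −0.46 against −0.02 over the 4040 genes. Of 7 a-specific genes 5 were lower (median −0.44), but all of the 7 except STE6 also stand on the pheromone response list. MFA1, which encodes a-factor, was the 1 pheromone response gene past 2-fold. It had 1102 CPM in set1Δ and 2345 CPM in WT, a log2 difference of −1.09 (interval −1.16 to −1.02). AGA2, the binding subunit of a-agglutinin, had 313 reads in set1Δ and 629 in WT (−1.0, interval −1.20 to −0.81), and MFA2, the other a-factor gene, had 3281 and 5082 (−0.63). MFA1 was called lower after release as well (−2.13 ± 0.43, adjusted p = 0.00343, edgeR), as was AGA2 (−1.20 ± 0.26, adjusted p = 0.00495). Without the 105 and 120 min pairs neither was called (edgeR, adjusted p = 0.0758 for MFA1 and 0.0856 for AGA2).

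Several signalling genes were lower as well. SST2, which ends the signal at the G protein, had 158 reads in set1Δ and 291 in WT (−0.87), and FUS1, needed for cell fusion, had 38 and 71 (−0.86). GPA1, the G protein α subunit, had 312 reads in set1Δ and 469 in WT (−0.58), and FUS3, the mating MAP kinase, had 316 and 470 (−0.57). The receptor gene STE2 had 807 and 1096 reads (−0.44), and FAR1, the inhibitor of G1 cyclin-dependent kinase, had 798 and 1111 (−0.47). The intervals of these 6 lay below 0. KAR4, a regulator of karyogamy genes, stood at −0.62 and PRM4 at −0.78. On the other side, BAR1, a secreted protease for α-factor, had 250 reads in set1Δ and 229 in WT, ASG7 had 217 and 192, and STE6, the a-factor exporter, was even at 87 and 91. STE12 itself had 57 reads in set1Δ and 47 in WT (0.27, interval −0.30 to 0.87), and the karyogamy genes KAR3 and PRM3 stood at 0.35 and 0.19. MSG5, a phosphatase of Fus3, had 92 reads in set1Δ and 113 in WT, with an interval that covers 0. FIG2, a wall protein of mating cells, had 147 reads in set1Δ and 91 in WT (0.68, interval 0.31 to 1.09). Direction was therefore mixed within the list in the asynchronous pair. After release 17 of its 20 genes were called lower and none higher, against 10.1% of all genes tested lower and 7.91% higher. Of the 10 measured haploid-specific genes 8 were lower, with a median of −0.20, and GPA1, FAR1, FUS3 and STE12 among the 10 also stand on the pheromone response list.

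The same list was further below WT in every release pair. Its median was −0.56 at 0 min, −2.69 at 15 min, −3.06 at 45 min and −1.53 at 120 min, against −0.46 in the asynchronous pair. PRM4, for example, differed by −0.78 in the asynchronous pair and by −3.36 ± 0.33 over the release (SE, adjusted p = 1.12e-05, edgeR).

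**Figure D2:**
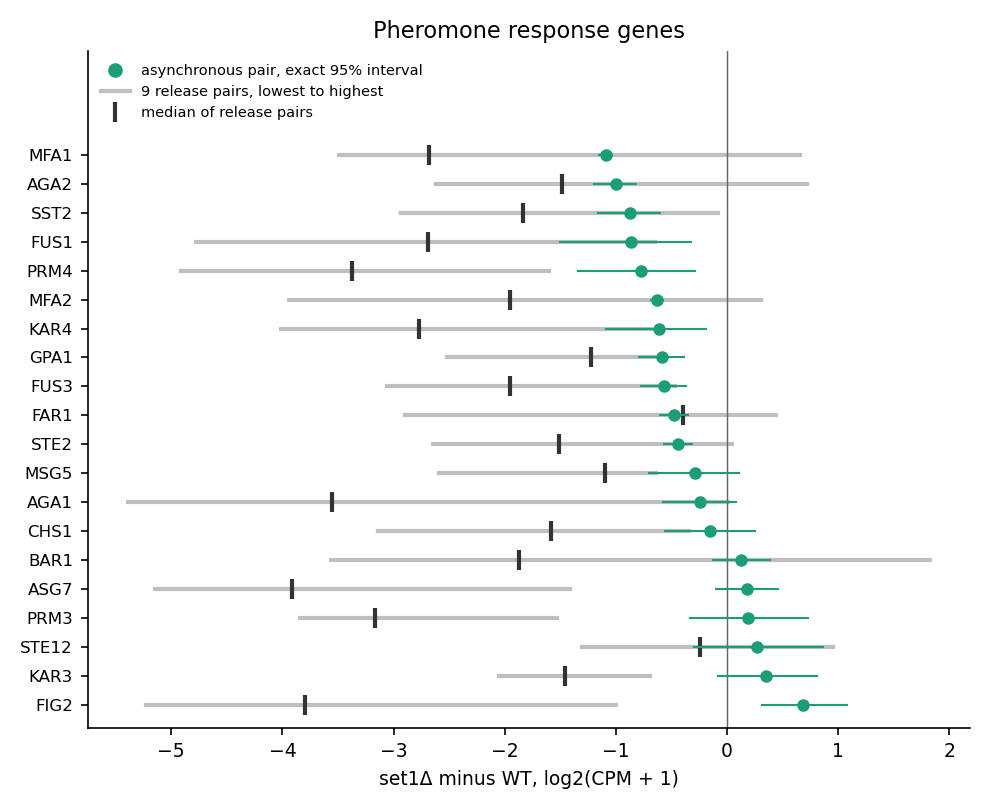
For each of the 20 measured pheromone response genes (rows), the green point is the set1Δ minus WT log2 difference of the asynchronous pair with its exact 95% interval, the grey bar spans the 9 release pairs and the black tick is their median. The asynchronous points run from −1.09 (MFA1) to 0.68 (FIG2), and all but that of FAR1 lie above the median of the release pairs.

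The promoters of these genes were read in the R64 genome, over 400 bases before the annotated coding start, since most members of the list were lower together. The letters TGAAACA, the core to which Ste12 binds, were searched on both strands. They stood in the promoters of 14 of the 20 pheromone response genes and 6 of the 7 a-specific ones, against 379 of the 3906 genes read (9.70%). Both lists are of mating genes, which Ste12 turns on, so a high share is a trait of the lists and no result of this pair. The lists overlap, so their counts are not independent. Of the 7 a-specific genes 5 were lower in set1Δ, so matches were not confined to lower genes. The 379 genes had a median log2 difference of −0.05, against −0.02 over all. Among features of 1 gene, none of the 10 highest and 1 of the 10 lowest, MFA1, held a match. Stretches around the matches of 4 genes lower in set1Δ are shown 5′ to 3′ on the strand of the gene, with each match in capitals (TGTTTCA is the same motif on the other strand). They run from the first to the last match with 12 bases on either side.
FUS1, chrIII:71604-71661, + strand: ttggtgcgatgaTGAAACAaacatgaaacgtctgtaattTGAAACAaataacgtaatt
KAR4, chrIII:27772-27847, + strand: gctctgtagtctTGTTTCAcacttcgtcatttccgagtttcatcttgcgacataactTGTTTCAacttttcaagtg
MFA1, chrIV:1384852-1384882, + strand: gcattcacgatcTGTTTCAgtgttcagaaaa
SST2, chrXII:1041593-1041623, − strand: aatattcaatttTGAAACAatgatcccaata
FUS1 and KAR4 hold 2 matches each and MFA1 and SST2 hold 1. AFB1 and PRM4, which were also lower, hold none in this window. A match describes the letters and not a bound site.

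Retrotransposon RNA was higher in asynchronous set1Δ. Ty1 and Ty2 are mobile elements that copy themselves through RNA, and their copies are so alike that reads of single features are uncertain, so sums are given. The 31 Ty1 features summed to 24665 reads in set1Δ and 13794 in WT, or 10859 and 6063 CPM, a log2 difference of 0.84 (interval 0.81 to 0.87). All 31 were higher in set1Δ, by 0.08 to 1.06, and 2 of them passed 2-fold. The 10 Ty2 features summed to 1293 reads in set1Δ and 830 in WT (0.64, interval 0.51 to 0.77), and 9 of the 10 were higher. Both sums were higher in set1Δ in all 9 release pairs too, Ty1 by 0.34 to 1.23 (median 0.87) and Ty2 by 0.35 to 1.01. The asynchronous values lie inside those ranges.

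Ty3 did not follow them. Its 1 measured feature had 55 reads in asynchronous set1Δ and 60 in WT (−0.12, interval −0.68 to 0.43), so no difference was detectable at this depth. After release the Ty3 difference was −2.27 to −0.84, and the asynchronous value lies above that range. Of 9 measured genes known to act on Ty elements, a list that holds both restrictors such as FUS3 and activators of Ty1 transcription such as TEC1 and STE12, 8 were lower (median −0.12) and STE12 was higher.

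Ty1 RNA also carried shorter tails in set1Δ. Weighted by reads, the mean Ty1 tail was 19.1 nt in asynchronous set1Δ and 20.8 nt in WT, and 28 of 31 features were shorter. After release the mean ran from 17.0 to 19.3 nt in set1Δ and from 19.8 to 22.2 nt in WT, without overlap, and was shorter in set1Δ in 9 of 9 pairs. The tails of all genes were also shorter in set1Δ in some pairs, most at 30 min and 120 min, with median differences of −2.79 and −3.42 nt, where the Ty1 differences were −3.76 and −2.49 nt. Ty2 tails averaged 22.5 nt in set1Δ and 24.8 nt in WT. The share of Ty1 reads with a tail was 43.0% in set1Δ and 45.7% in WT, below the share of all reads in both. YDR170W-A, which is not among the 31 Ty1 features, had a mean tail of 21.4 nt over 238 tailed reads in set1Δ and 28.7 nt over 114 in WT. All of its reads carried a tail in both libraries, against 73.7% of all reads in set1Δ and 73.9% in WT. Why its reads differ in this was not tested, and its tail lengths may not compare with those of other features. The mean tail of YDR170W-A was shorter in 9 of 9 release pairs (−5.61 ± 0.86 nt by limma, adjusted p = 0.0517, and 0.0193 without the 105 and 120 min pairs).

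The CUP1 locus on chromosome VIII stood above its neighbours. CUP1-1 and CUP1-2 encode the copper metallothionein, and in yeast strains the repeat that holds them with YHR054C and part of RSC30 varies in copy number. CUP1-1 had 1920 reads in set1Δ and 1013 in WT (0.92, interval 0.81 to 1.04), and CUP1-2 had 2040 and 1083 (0.91). YHR054C had 145 reads in set1Δ and 69 in WT (1.05, interval 0.65 to 1.51), and RSC30, of the chromatin remodeller RSC, had 151 and 73 (1.03, interval 0.64 to 1.47). All 4 were thus near 2-fold higher. Since they share a repeat, they are not 4 independent readings, and whether reads of YHR054C and RSC30 can be told apart was not checked. Outside the repeat CIC1 was even, with 171 reads in set1Δ and 169 in WT, and CPR2, a cyclophilin, was lower, with 215 and 323. The 4 genes were higher in set1Δ in 9 of 9 release pairs, with CUP1-1 called at 0.89 ± 0.15 (adjusted p = 0.000782, edgeR) and RSC30 at 1.05 ± 0.18 (adjusted p = 0.00103). The number of copies in each strain was not measured here. The coding sequences of CUP1-1 and CUP1-2 in the R64 genome, 186 bases each, have 0 differences, so their reads cannot be told apart. Their last 90 coding bases, which lie nearest to the 3′ end that PAT-seq reads, are shown with the stop codon in capitals.
CUP1-1, chrVIII:212535-212624, − strand: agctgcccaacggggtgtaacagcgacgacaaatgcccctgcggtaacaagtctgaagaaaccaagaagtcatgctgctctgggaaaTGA
CUP1-2, chrVIII:214533-214622, − strand: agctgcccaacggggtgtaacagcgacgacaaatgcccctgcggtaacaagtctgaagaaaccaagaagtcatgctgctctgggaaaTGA

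**Figure D3:**
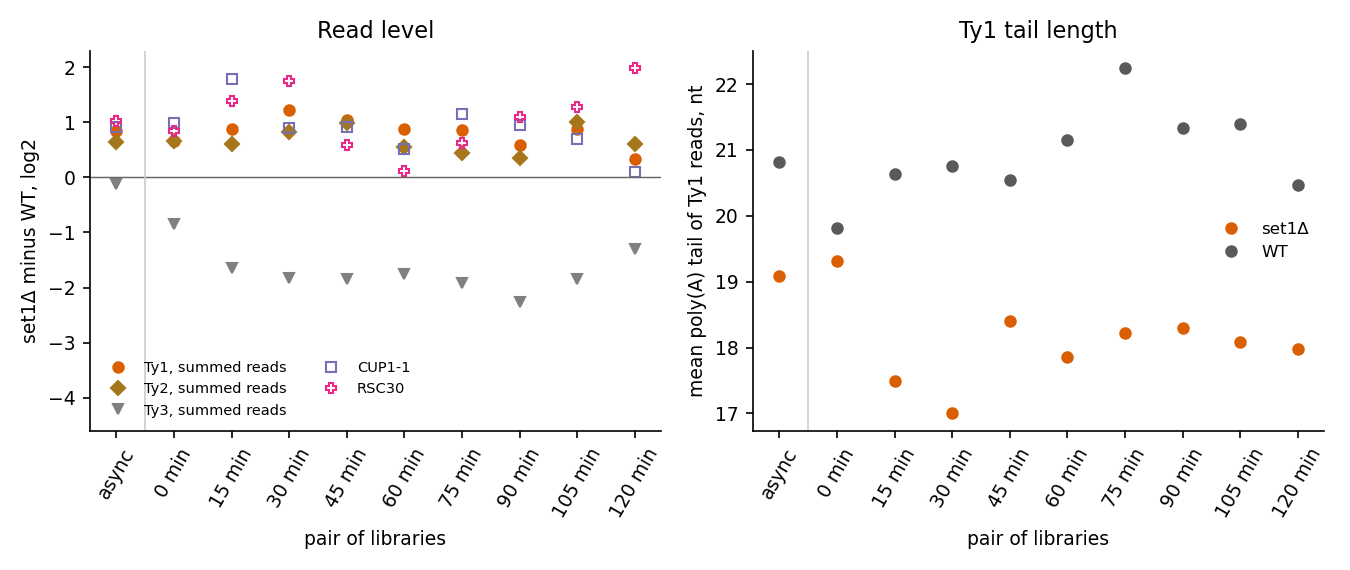
Left, set1Δ minus WT log2 difference of summed Ty1, Ty2 and Ty3 reads and of CUP1-1 and RSC30 in the asynchronous pair and in each release pair; right, the read-weighted mean poly(A) tail of Ty1 reads in nt, set1Δ in orange and WT in grey. Ty1 stands at 0.84 in the asynchronous pair and above 0 in all 9 release pairs, Ty3 at −0.12 and below 0 in all 9, and the Ty1 tail is shorter in set1Δ in every pair (19.1 against 20.8 nt in the asynchronous one).

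Genes of growth differed by small amounts, in opposite directions by group. Constitutive chaperones were higher in 15 of 19 cases, against 48.6% of the 4040 genes, with a median of 0.24. SSA1, an Hsp70, had 24886 reads in set1Δ and 19005 in WT (0.39), HSP82, an Hsp90, had 1871 and 1307 (0.52), and HSP60, the mitochondrial chaperonin, had 6430 and 4659 (0.47). Of the amino acid synthesis genes under Gcn4, 25 of 31 were higher (median 0.22), led by ASN1, of asparagine synthesis, with 625 reads in set1Δ and 416 in WT (0.59), and TRP5, of tryptophan synthesis, with 1292 and 885 (0.55). Ribosome biogenesis genes were higher in 49 of 72 cases (median 0.11), among them the nucleolar NOP2 (640 reads in set1Δ and 412 in WT) and NOP14 (282 and 192). After release edgeR called 3 of 19 chaperone genes, 15 of 31 Gcn4 targets and 23 of 72 ribosome biogenesis genes higher in set1Δ and none of the 3 lists lower, against 7.91% of all genes higher and 10.1% lower. With so few genes, the chaperone count is not far from that of all genes.

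Ribosomal protein genes went the other way. They were gathered by symbol after their values were seen, and 123 of 136 were lower in asynchronous set1Δ, with a median of −0.21. Together they took 29.3% of set1Δ reads and 31.9% of WT reads. RPP1B, a stalk protein, stood lowest at 9014 reads in set1Δ and 13913 in WT (−0.62), and RPP0, the stalk base, highest at 44246 and 36429 (0.28). They made up 114 of the 227 genes with 2000 reads or more, and 105 of these 114 were lower (median −0.22), while 64 of the other 113 were (median −0.05). With total reads in place of TMM the ribosomal median was −0.14. Over the release pairs their median ran from 0.44 at 0 min to −0.32 at 105 min, and 1 of 136 was called higher and 5 lower, below the 7.91% and 10.1% of all genes.

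Histone genes were lower as well. Of 11, 10 were lower in asynchronous set1Δ, with a median of −0.30. HTB2, an H2B gene, had 998 reads in set1Δ and 1459 in WT (−0.54), HHF2, an H4 gene, had 1420 and 1911 (−0.43), and HTA1, an H2A gene, had 1199 and 1477 (−0.30). The exception was CSE4, the centromeric H3 variant, with 77 reads in set1Δ and 65 in WT. Histone RNA is made in S phase, and the phases present in each asynchronous culture were not measured. The list's median moved between 0.63 at 15 min and −0.90 at 60 min after release. No histone gene was called over the release in either direction (edgeR, 0 higher and 0 lower), against 7.91% of all genes tested higher and 10.1% lower. With 11 genes, these counts are not far from those of all genes.

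**Figure D4:**
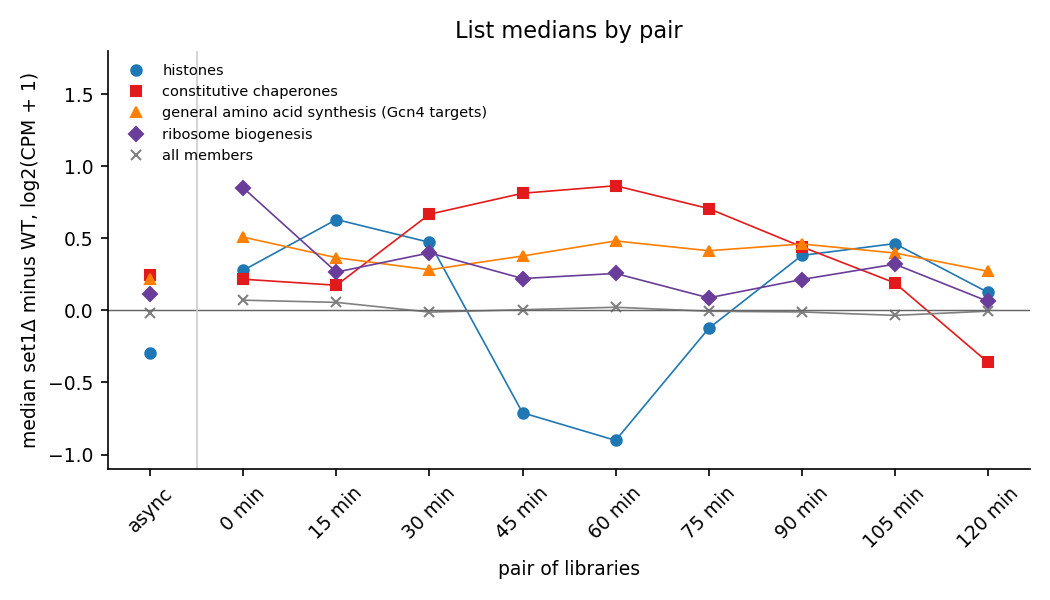
Median set1Δ minus WT log2 difference of 4 gene lists and of all 4040 genes (grey crosses) in the asynchronous pair and in each release pair in order of time. In the asynchronous pair chaperones (0.24) and Gcn4 targets (0.22) stand highest, ribosome biogenesis at 0.11, all genes at −0.02 and histones at −0.30, and the histone median crosses 0 during the release.

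Microtubule genes were looked at because the series concerns benomyl, a drug that binds tubulin. The α-tubulin gene TUB1 had 996 reads in asynchronous set1Δ and 798 in WT (0.32), and TUB3, the other α-tubulin gene, had 237 and 172 (0.46). TUB2, for β-tubulin, had 495 reads in set1Δ and 404 in WT (0.29), and TUB4, for γ-tubulin, had 226 and 180 (0.33). All 4 were slightly higher in set1Δ, and all 4 were called higher after release, with differences of 0.56 to 0.60 (adjusted p = 0.0326 for TUB1, 0.00845 for TUB3, 0.00488 for TUB2 and 0.0084 for TUB4, edgeR). The call of TUB1 was lost in 7 of the 9 fits that leave out 1 time point (adjusted p of 0.000303 to 0.0867), and those of TUB2, TUB3 and TUB4 in none of the 9. The tubulin folding genes brought the list to 5 of 13 higher. GIM5, of prefoldin, had 120 reads in set1Δ and 173 in WT (−0.52), and RBL2, a β-tubulin cofactor, had 135 and 193 (−0.51). Among 22 kinetochore and checkpoint genes 14 were lower and 2 passed 2-fold lower, HSK3 and the CENP-C homologue MIF2 (24 reads in set1Δ and 53 in WT). Of 10 motor and spindle pole genes 6 were higher, with STU2, a microtubule polymerase, at 230 reads in set1Δ and 147 in WT (0.64) and SPC42, of the spindle pole body, at 49 and 78 (−0.64).

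Cell cycle lists stood near the median of all genes. Of 35 G1/S genes 14 were higher (median −0.05), of 20 G2/M genes 9 (−0.01) and of 18 M/G1 genes 7 (−0.13). The signs of the G1/S and G2/M medians turned positive with total reads in place of TMM. The G1 cyclin gene CLN2 had 335 reads in set1Δ and 391 in WT, and SIC1, the inhibitor of B-type cyclin kinase, had 410 and 438. Their log2 differences were −0.22 and −0.09, and the interval of SIC1 covers 0. CLB2, a mitotic cyclin gene, had 4 reads in set1Δ and 8 in WT and was too low to be described. The widest G1/S values were those of PRI2, a primase subunit, at 121 and 195 reads (−0.68), and RFA1, of the single-strand binding protein, at 56 and 36 (0.61). In G2/M they were BUD3, of bud site choice, at 129 reads in set1Δ and 77 in WT (0.73), and TEM1, the GTPase of mitotic exit, at 74 and 120 (−0.68). In M/G1 TEC1, a Ste12 partner, had 193 reads in set1Δ and 279 in WT (−0.52) and was also called lower after release (−1.62 ± 0.25, adjusted p = 0.000438, edgeR).

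Genes of the cell surface and of metals were mixed. Of 18 cell-wall mannoprotein genes 12 were lower (median −0.15), with TIR1 past 2-fold higher and SPI1 past 2-fold lower, at 24 reads in set1Δ and 51 in WT. CWP2, an abundant wall protein named after its values were seen, had 21695 reads in set1Δ and 33305 in WT (−0.62, interval −0.64 to −0.59) and was called lower after release (−0.91 ± 0.15, adjusted p = 0.000481, edgeR). Of 21 iron genes 14 were lower, led by FRE3 and by FIT3, a wall protein that holds siderophores, with 244 reads in set1Δ and 438 in WT (−0.84). Multidrug resistance genes were higher in 12 of 15 cases (median 0.21), with ATR1 at 64 reads in set1Δ and 36 in WT (0.79) and QDR3 at 135 and 91 (0.56), both exporters, of which QDR3 was called higher after release (adjusted p = 0.0177, edgeR, and 0.0541 without the 60 min pair).

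Energy and metabolic lists differed little. Glycolysis genes were higher in 13 of 18 cases (median 0.11), with PDC5, a minor pyruvate decarboxylase, past 2-fold at 57 reads in set1Δ and 26 in WT. Respiration genes were higher in 17 of 42 (median −0.12), between COX7, of cytochrome oxidase, at 456 reads in set1Δ and 659 in WT (−0.53), and ACO1, aconitase, at 750 and 534 (0.49). Phosphate genes were higher in 9 of 12 (median 0.13), and PHO84 was the 1 gene past 2-fold. Of 15 methionine and sulfate genes 8 were higher, with SAM2, an S-adenosylmethionine synthetase, at 72 reads in set1Δ and 40 in WT (0.82). Proteasome genes split evenly at 17 of 34, and translation factors were higher in 22 of 36 (median 0.05). Induced stress genes were higher in 10 of 22 (median −0.04, turning positive with total reads in place of TMM).

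Chromatin lists other than COMPASS and the histones showed no gene past 2-fold. Of 16 genes for the other H3 methylation, H2B ubiquitination and demethylation factors 9 were higher, with CTR9, of the Paf1 complex, at 52 reads in set1Δ and 37 in WT. Of 10 silencing genes 7 were higher, with SIR4 at 93 and 64 (0.53), and RAP1 was lower at 38 and 55. Position along chromosomes was counted for the 3906 genes of 1 annotation. Within 20 kb of a chromosome end 21 of 61 genes were higher in set1Δ (34.4%, median −0.13), against 46.4% of 265 genes at 20 to 50 kb and 48.7% of 3580 further in. The 1 gene within 20 kb past 2-fold was YJL225C, of the Y′ helicase family, at 47 reads in set1Δ and 99 in WT (−1.04), and 10 of 14 genes of subtelomeric families were lower. The medians of the 16 chromosomes ran from −0.07 to 0.13.

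Whether any gene differed between strains in another way in the asynchronous pair than after release was tested directly. That test takes the asynchronous strain difference minus the mean release one over all 20 libraries, and assumes that the lone asynchronous pair varies like the release pairs. By edgeR's quasi-likelihood test it called 0 of 5060 genes (0%) above and 0 (0%) below at an adjusted p below 0.05, with 101 and 15 at an unadjusted p below 0.05. DESeq2 called 5 above and 0 below, of which 4 belong to the 4040 genes. These were GSC2, a glucan synthase (2.64, adjusted p = 0.00292), ASG7 (4.07, adjusted p = 0.00591), DIA1 (2.33, adjusted p = 0.00942) and FIG2 (4.28, adjusted p = 0.0303). GSC2 had 122 reads in asynchronous set1Δ and 75 in WT (0.69), but was lower in set1Δ in all 9 release pairs, and DIA1 had 86 and 93 reads (−0.11) against a release difference of −2.43 ± 0.15 (adjusted p = 1e-07, edgeR). By edgeR the adjusted p of the difference was 0.275 for GSC2 (2.62 ± 0.49) and 0.275 for DIA1 (2.32 ± 0.46). Counting only reads with a tail, edgeR called GSC2, DIA1 and YNL208W, and without the 105 and 120 min pairs it called GSC2, DIA1 and YDR170W-A. Without the 0 min pair it called 3, of which ASG7 is 1 of the 4040, and without the 120 min pair GSC2.

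The next genes in that order were not called by edgeR or DESeq2. Above stood PRM3, a karyogamy gene (2.93), KAR3, a kinesin-14 of karyogamy and the spindle (1.81), ICT1, an acyltransferase (1.75), and BNA2/YJR079W (1.41), with unadjusted p between 0.0028 and 0.0037. Below stood, by edgeR, MIF2 (−1.33, unadjusted p = 0.0071), YSP2, a sterol transfer protein (−1.33, unadjusted p = 0.0069), CAF40, of the Ccr4-Not complex (−0.99, unadjusted p = 0.0082), and SMI1, of cell wall synthesis (−0.92, unadjusted p = 0.029). YSP2 had 60 reads in asynchronous set1Δ and 66 in WT, and CAF40 had 88 and 129, whereas both were higher in set1Δ in 9 of 9 release pairs. LYS2, of lysine synthesis, had 302 reads in set1Δ and 259 in WT (0.22) and was called higher after release at 1.12 ± 0.12 (adjusted p = 1.76e-05, edgeR). RFC4, of the clamp loader, had 37 reads in set1Δ and 74 in WT (−0.96) against a release difference of 0.17, and RNH202, of RNase H2, had 69 and 103 (−0.56) against 0.33.

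Poly(A) tails hardly differed between the asynchronous cultures. Over 3876 genes with at least 30 tailed reads in both libraries, the median tail was 28.8 nt in set1Δ and 28.8 nt in WT, and the median difference was 0.003 nt with an SD of 2.88 nt. Within 5 nt lay 3541 of the genes (91.4%). At least 10 nt longer in set1Δ were 16 genes (0.413%) and at least 10 nt shorter 11 (0.284%), and none of these 27 had more than 74 tailed reads in the shallower library. The SD was 3.82 nt among 1700 genes with 30 to 99 tailed reads there and 0.631 nt among 278 genes with 1000 or more, of which 236 lay within 1 nt. In the deepest class the ends were SBA1, an Hsp90 co-chaperone, at 2.34 nt longer in set1Δ and GCN4, the amino acid control activator, which differed by −2.52 nt, both named after their values were seen. After release the median tail difference of a pair ran from −3.42 nt at 120 min to 0.24 nt, so the asynchronous median lies within that range.

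**Figure D5:**
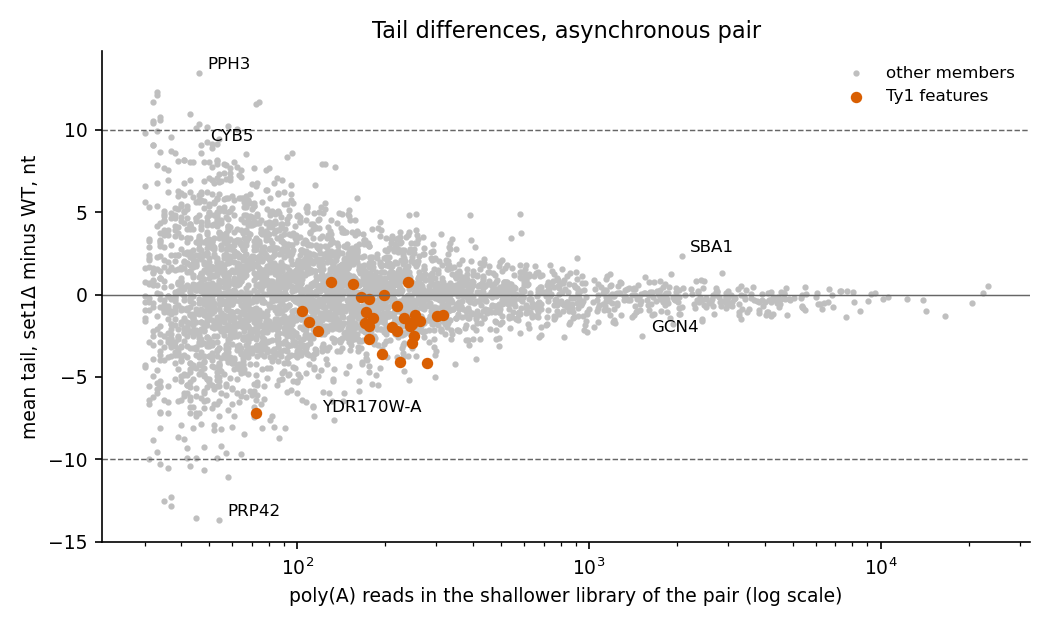
Each point is a gene of the asynchronous pair, placed by the tailed reads of its shallower library (x axis, log scale) and its mean tail in set1Δ minus WT in nt (y axis), with Ty1 features in orange and dashed lines at 10 nt. The spread narrows with depth, the points past 10 nt all have 74 tailed reads or fewer, and Ty1 features lie mostly below 0 (28 of 31).

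The longest gain was that of PPH3, a protein phosphatase, whose mean tail was 47.1 nt over 46 reads in set1Δ and 33.6 nt over 64 in WT. The gains that followed were those of SEC2, of secretory vesicles (38.4 and 26.1 nt), SRX1, a sulfiredoxin (29.9 and 17.8 nt), AFT1, the iron regulator (35.5 and 23.8 nt), and PTR3, of amino acid sensing (32.8 and 21.1 nt). NUP53 of the nuclear pore, TSR1 of ribosome assembly and XDJ1, a J-protein, closed the 8, with gains of 11.6, 11.0 and 10.8 nt. The largest loss was that of PRP42, of the U1 snRNP, at 29.8 nt over 54 reads in set1Δ and 43.5 nt over 62 in WT. TAD3, of a tRNA deaminase, had 30.1 nt in set1Δ and 43.6 nt in WT, YIL177C, of the Y′ helicase family, 21.4 and 34.2 nt, ALK2, a haspin-like kinase, 24.1 and 36.7 nt, and RTT10 23.4 and 35.7 nt. SYS1, of the Golgi, the merged Ty2 feature YFL002W-A/YFL002W-B and PFU1 followed, at −11.1, −10.7 and −10.5 nt. These are means of few reads. The release median had the same sign for 10 of the 16 longer tails and for 6 of the 11 shorter ones.

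Tests of tails after release made 1 call. Of 3938 features tested by limma, 0 (0%) were longer and 1 (0.0254%) was shorter in set1Δ, with 93 longer and 438 shorter at an unadjusted p below 0.05. With each value taken minus the median of its library, 0 were called in either direction, and 211 were longer and 249 shorter at an unadjusted p below 0.05. The call was CYB5, cytochrome b5 of lipid synthesis, which differed by −6.43 ± 0.81 nt (adjusted p = 0.0224). The call was lost in 6 of the 9 fits that leave out 1 time point (adjusted p of 0.0109 to 0.135), all but those without the 0, 90 or 120 min pair, and without the 105 and 120 min pairs together (0.164). CYB5 ran the other way in the asynchronous pair, at 29.4 nt over 47 tailed reads in set1Δ and 20.3 nt over 65 in WT. The difference between the asynchronous pair and the release was 15.5 ± 2.42 nt (unadjusted p = 4.32e-05, adjusted p = 0.170), so it was not called. No tail differed between the asynchronous pair and the release at an adjusted p below 0.05 (0 of 3938 in either direction by limma), and 19 and 20 did at an unadjusted p below 0.05.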

How the data were processed

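PAT-seq libraries of 20 yeast samples, 10 a strain, were grouped by their labels. Raw read counts per feature, counts of tailed reads and mean tail lengths in nt over tailed reads were deposited by the authors. Bowtie2 2.2.5, Bowtie and the build sacCer3 stand in the submitters' processing notes, with no role given. The counting tool and strand setting are not given in the sources used here; overlapping and antisense genes, merged features, paralogs and Ty copies are uncertain. Of 6532 features, 5788 matched 1 gene of the R64 annotation, 149 several and 595 none, and 119 had no read. Columns of no sample numbered 0.

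Log2 differences are set1Δ minus WT of log2(CPM + 1), which understates low genes, with TMM factors over 20 libraries. Intervals are exact (Clopper-Pearson, 95%), for the ratio of the scaled counts with no 1 CPM added. The release test used edgeR 4.0.16 (robust quasi-likelihood fit, R 4.3.3) on features with a mean count of at least 10 over the 20 libraries, with time point as a factor. Tails were tested with limma 3.58.1 (robust, trend), with values from fewer than 10 tailed reads set missing. Features in the tail tests had at least 30 tailed reads in each asynchronous library, and at least 10 in at least 7 libraries a strain after release. The asynchronous libraries thus took part in choosing the features tested. Adjusted p-values are Benjamini-Hochberg over all features tested, called below 0.05. DESeq2 1.42.0 was an alternative. A paired fit is the same as this one, since time points are the pairs. Figures and counts used Python 3.11.15.

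The text names SET1 and its neighbours, the 10 highest and lowest genes, the 8 largest tail gains and losses, the 2 widest genes and any past 2-fold of 42 lists (not all printed, and 1 of the 10 highest genes is not reported here), the 8 nearest to a call in each direction of the asynchronous-against-release test, tubulin genes, CLN2, CLB2, SIC1, HTA1 and genes past 2-fold within 20 kb of an end. Further genes from the lists, and those marked in the text, were chosen after their values were seen. Members and lists were chosen with earlier results of these data known. The edgeR and DESeq2 fits, the limma test of tails after release and the exact interval at equal depth were tested on simulated data. The asynchronous-against-release test of tails and the other steps were not.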

Additional observations from a re-analysis of the deposited data

Results flagged for a closer look

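Of the genes past 1.5-fold in the asynchronous pair, 3 were higher in set1Δ there and lower in set1Δ in all 9 release pairs. FIG2, a wall protein of mating cells, had 147 reads in set1Δ and 91 in WT (log2 difference 0.68), against −5.22 to −1.0 over the release pairs. GSC2, a glucan synthase, had 122 reads in set1Δ and 75 in WT (0.69), against −2.55 to −1.25. PLB1, a phospholipase B, had 177 reads in set1Δ and 117 in WT (0.59), against −0.80 to −0.13. These genes were picked by that very difference, so the values are a description, and the difference was not tested for them other than in the fit over all genes.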

How the results depend on the processing

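With 1 library a strain, the asynchronous values have no error beyond counting, and genes under 100 reads, 27 of the 40 past 2-fold, limit what they show. The counts of genes past 2-fold were 24 higher and 16 lower. They were 4 and 2 of 1742 genes with at least 200 reads, 111 and 49 of 5292 with at least 10 reads, and 166 and 148 at 1.5-fold. TMM of the pair alone gave 26 and 16, DESeq2 size factors 27 and 16, reads with a tail 22 and 15, a pseudocount of 0.25 CPM 26 and 18, and total reads 34 and 11. Tails past 10 nt were 0 and 0 of 2176 genes with at least 100 tailed reads, and 179 and 156 passed 5 nt. Release calls were 660 higher without the 105 and 120 min pairs, 262 higher and 337 lower with no term for time point, and 281 to 636 higher and 369 to 709 lower with 1 time point left out. Of the 24 release calls among the genes past 2-fold, 17 to 24 remained under the alternatives. The asynchronous-against-release test called 5 genes above with DESeq2, 3 with tailed reads, 3 without the 105 and 120 min pairs and 0 to 3 (below, 0 to 0) with 1 time point left out. For tails after release, 5 were shorter with 30 tailed reads per value, 0 with values centred on their library, and 0 to 11 with 1 time point left out (longer, 0 to 1). The asynchronous-against-release test of tails gave 0 to 0. LYS20, of lysine synthesis, had a release difference of −0.01 (adjusted p = 0.986), and 0.37 (adjusted p = 0.0264) without the 105 and 120 min pairs. The causes of these shifts were not tested.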
